A study of Mus musculus with 4 samples.

Results

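The B cell receptor signals through a small set of proteins that sit at or just beneath the membrane, and 9 of their genes are described here in mouse splenic B cells by single-cell RNA-Seq (scRNA-Seq). The genes were Cd79a, Cd79b, Cd81, Ms4a1, Syk, Lyn, Blnk, Btk, and Plcg2. They were chosen by name from 31053 genes, and all 9 were found once in the authors' gene table. The series has 2 cultures with 2 replicates each, named Bregs-CpG and Bregs-TLR, all from WT C57BL/6 mice whose ages the labels do not give. The paper gives only an age range in weeks, for all of its mice. Bregs-CpG were purified splenic B cells cultured for 3 days with the TLR9 agonist CpG B ODN 1668. Bregs-TLR had the same culture, with the TLR4 agonist LPS, the protein kinase C activator PMA, and the calcium ionophore ionomycin present for the last 5 hours. The cells were therefore a stimulated culture, not cells taken directly from a mouse.

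Antigen binding to the receptor is passed inward by the paired chains CD79A and CD79B, whose tails carry the tyrosine motifs that the Src family kinase LYN phosphorylates and that recruit the kinase SYK. SYK phosphorylates the adaptor BLNK, which brings the kinase BTK and phospholipase C gamma 2 (PLCG2) together so that calcium and protein kinase C signals start. CD81 is a tetraspanin of the receptor's surroundings in the membrane, and MS4A1 is CD20, a membrane protein of B cells. PMA and ionomycin act on protein kinase C and calcium directly, below PLCG2 in this chain.

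Counts were unique molecular identifiers (UMIs), each standing for 1 captured mRNA molecule. The barcodes of 19920 cells end in the numbers 5 to 8, which number 4 libraries. No label ties a library number to a sample, so that the culture of a library is unknown here, no difference between the 2 cultures was tested, and no p-value is given. Of these cells, 18534 had at least 1000 genes and under 10% mitochondrial UMIs, with 4196, 4714, 5621, and 4003 in libraries 5, 6, 7, and 8. Cells were split into 145 Jchain-high cells (at least 5 UMIs of the plasma cell gene Jchain), 1609 Mki67-positive cells (at least 1 UMI of the proliferation gene Mki67 and fewer than 5 of Jchain), and 16780 other cells. Levels are counts per 1000000 UMIs of a library and class (CPM) with exact Poisson 95% intervals. Differences are log2 ratios of CPM with exact conditional 95% intervals. All intervals cover counting error only and leave out the spread between cells and between libraries.

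Libraries 5 and 6 stood apart from libraries 7 and 8 in more than the genes described. Per cell they had medians of 8752 and 8785 UMIs against 10355 and 10077, and median mitochondrial shares of 7.22% and 7.18% against 4.61% and 4.65%. Between 1 and 8 barcode sequences were shared by any pair of libraries. The B cell label was checked on 6 markers, among them Cd74, Ighm, Igkc, Pax5, and Ebf1, none of which was at 0 in any library, with a summed level from 10717 to 22726 CPM. The lists of 7 T cell, 6 myeloid, and 5 NK cell markers each summed to at most 2.98 CPM in any library, with Cd3e, Trbc2, Lyz2, and Ncr1 at 0 in all 4. Of the erythroid markers, Hba-a1 and Hba-a2 were at 0 in every library, while Hbb-bt in other cells was 4.29 and 3.55 CPM in libraries 5 and 6 and 225 and 289 CPM in libraries 7 and 8. The part of these differences in the values below was not tested.

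Promoters are shown for 3 members that moved in opposite directions between the library pairs, Cd79a and Plcg2 (higher in libraries 5 and 6) and Cd81 (lower there). RefSeq promoter windows on GRCm38.p6 were matched for 6 of the 9 members: Cd79a, Cd81, Syk (with 2 windows), Blnk, Btk, and Plcg2. The bases printed are at most the last 150 of each window that lie before the gene start of both RefSeq and GENCODE, 5′ to 3′ on the + strand, at chr7:24897247-24897380 for Cd79a, chr8:117498125-117498274 for Plcg2, and chr7:143052589-143052738 for Cd81. Capitals mark matches to an E-box (CANNTG) or to an EBF1 core (CCCNNGGG), read on both strands.
Cd79a: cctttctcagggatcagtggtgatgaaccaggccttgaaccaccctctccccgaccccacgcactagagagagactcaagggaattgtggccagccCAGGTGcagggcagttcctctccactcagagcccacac
Plcg2: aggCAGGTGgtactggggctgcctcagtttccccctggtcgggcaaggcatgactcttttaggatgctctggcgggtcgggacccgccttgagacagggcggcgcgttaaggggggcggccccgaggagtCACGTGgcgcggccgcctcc
Cd81: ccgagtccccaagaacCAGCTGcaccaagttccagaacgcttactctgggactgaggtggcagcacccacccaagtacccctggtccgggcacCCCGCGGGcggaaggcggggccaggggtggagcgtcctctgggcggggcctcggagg
An E-box was in all 7 member windows of 300 bases and in 72.3% of all 32851 windows. The EBF1 core was in the window of Cd81 alone among the 6 members with a window, with 2 matches of which 1 is in the bases printed, and in 13.7% of all windows. The octamer (ATGCAAAT), a motif of immunoglobulin promoters, was in the window of Blnk alone among these members and in 1.74% of all windows. An AP-1 motif (TGANTCA) was in none of the member windows and in 7.81% of all windows, and a TATA box (TATAAA) was in that of Cd81 and in 13.6%. These matches describe letters in the windows and not sites in use. Only exact matches were counted, so that a binding site with other letters, in Cd79a or another member, would be missed.

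The main difference was between the library pairs. In other cells, 8 of the 9 members were at least 1.5-fold higher in both libraries 5 and 6 than in both libraries 7 and 8, and the remaining member, Cd81, was at least 1.5-fold lower. Of the 6633 genes with at least 10 CPM over all passing cells, 16.0% were called higher and 29.7% lower by the same rule. The members and the wider list below were chosen with earlier results of these data known. These shares are therefore a background and not a test. The median log2 gap, taken between the nearest libraries of each pair, was 1.55 over the members and -0.17 over all genes.

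The receptor chains were the most abundant members. Since 3′ UMI counts stand for whole mRNA molecules, levels of different genes are compared without division by length. Cd79a was at 3167, 3366, 1029, and 1018 CPM in other cells of libraries 5, 6, 7, and 8. Cd79b was at 2254, 2332, 298, and 312 CPM. Neither chain overlapped between the pairs, and the gap was larger for Cd79b (log2 gap 2.85) than for Cd79a (log2 gap 1.62). The ratio of their UMIs, looked at after these values were seen, was 1.41 and 1.44 Cd79a UMIs per Cd79b UMI in libraries 5 and 6 and 3.45 (95% interval 3.39 to 3.51) and 3.26 (3.19 to 3.32) in libraries 7 and 8. This UMI ratio of the chains of a protein heterodimer was thus higher in libraries 7 and 8.

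The largest gap of any member belonged to Ms4a1, which encodes CD20. It was at 1533 and 1561 CPM in libraries 5 and 6 and at 31.2 (29.7 to 32.7) and 37.2 (35.4 to 39.2) CPM in libraries 7 and 8, a log2 gap of 5.36. Cells of at least 5000 UMIs were thinned to that number, which kept 3629, 4069, 4940, and 3513 other cells of libraries 5, 6, 7, and 8 and left out the shallower ones. After thinning, 96.6% and 96.8% of other cells in libraries 5 and 6 and 11.4% and 12.04% in libraries 7 and 8 had an Ms4a1 UMI (unthinned 98.2%, 98.4%, 19.97%, and 20.5%). No class of another cell type was present from which a share from free RNA could be read. Cd81, the tetraspanin, had the opposite order, at 118, 115, 199, and 190.0 CPM and a log2 gap of -0.69. This gap lies near the limit of 1.5-fold, and Cd81 was not called when total counts were scaled by TMM (-0.40), by DESeq2 size factors (-0.52), without mitochondrial, ribosomal protein, and immunoglobulin genes (-0.52), or in cells under 5% mitochondrial UMIs (-0.55).

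**Figure D1:**
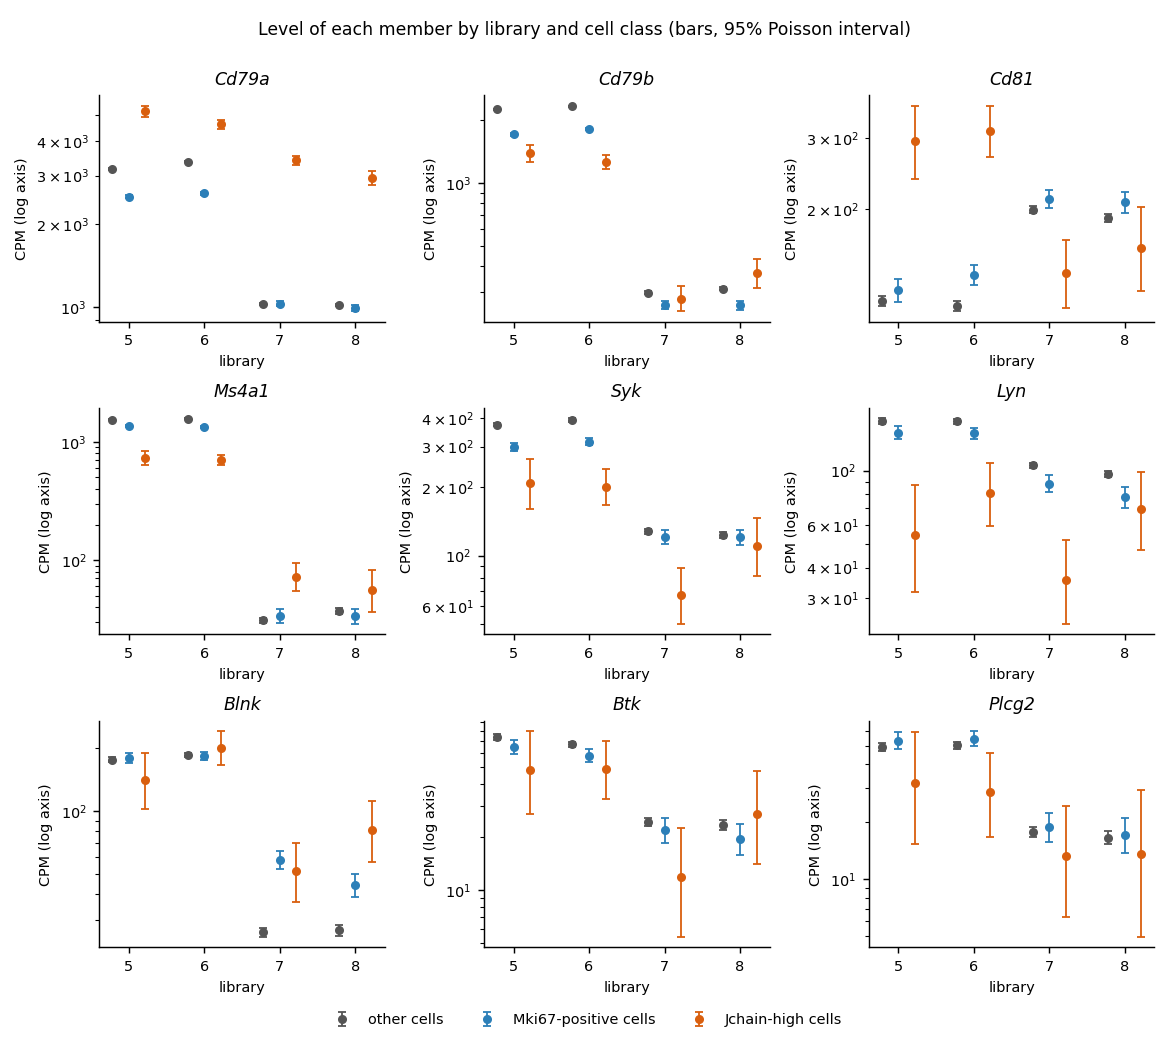
Level of each of the 9 members in CPM (log axis, with a range of its own in each panel) by library, in other (gray), Mki67-positive (blue), and Jchain-high cells (orange), where bars are exact Poisson 95% intervals. In other cells, libraries 5 and 6 lie above libraries 7 and 8 for every member but Cd81, which was at 118 and 115 CPM against 199 and 190.0 CPM.

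Among the 3 member kinases, Syk and Btk had similar gaps, and their order depended on the setting. Syk was at 374 and 392 CPM in libraries 5 and 6 and 128 and 123 CPM in libraries 7 and 8 (log2 gap 1.55). Btk, which acts on PLCG2, was at 73.5 and 66.9 CPM against 24.2 and 23.4 CPM (log2 gap 1.47). Btk had the larger gap of the 2 in cells under 5% mitochondrial UMIs (1.40 against 1.02) and without library 6 (1.60 against 1.55). The gap of Lyn, which acts first in the chain and also starts its inhibition, was the smallest among the 8 members called higher. It was at 159.7 and 159.5 CPM in libraries 5 and 6 and at 105 and 96.9 CPM in libraries 7 and 8 (log2 gap 0.60). Lyn was not called in cells under 5% mitochondrial UMIs (log2 gap 0.29) or without the 5% of cells with the most UMIs (log2 gap 0.58).

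The adaptor Blnk and the enzyme Plcg2, which it recruits, differed unequally. Blnk was at 177 and 185 CPM in libraries 5 and 6 and 26.2 and 26.8 CPM in libraries 7 and 8, with a log2 gap of 2.72, close to that of Cd79b. Plcg2, the least abundant member in other cells, was at 49.2 and 50.3 CPM against 17.7 and 16.5 CPM (log2 gap 1.48). Within a pair, libraries differed far less than between pairs. Libraries 5 and 6 differed most for Btk (log2 ratio 0.14, 0.06 to 0.21), and libraries 7 and 8 for Ms4a1 (log2 ratio -0.26, -0.36 to -0.16). The Ms4a1 level of library 8 included 18 other cells with at least 10 Ms4a1 UMIs, at 1581 CPM. Library 7 held 3 such cells, at 978 CPM. The part of these few cells in the Ms4a1 ratio was not tested. Intervals of the ratio of libraries 5 and 6 contained 0 for Cd81, Lyn, and Plcg2, and those of libraries 7 and 8 for Cd79a, Blnk, Btk, and Plcg2, so that these neighbors were not separated by counting error.

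Thinning also showed how the levels were spread over single cells. Of 5000 UMIs, the median other cell held 15 and 16 Cd79a UMIs in libraries 5 and 6 and 4 in both libraries 7 and 8. For Cd79b the medians were 11 and 12 UMIs against 1 and 1, and for Ms4a1 they were 7 and 7 against 0 and 0. A Cd79a UMI was present in 91.6% and 91.7% of other cells of libraries 7 and 8 and a Cd79b UMI in 62.9% and 65.2%. Blnk was detected in 58.4%, 59.9%, 11.2%, and 11.8% of thinned other cells in libraries 5, 6, 7, and 8, and Syk in 81.0%, 82.7%, 47.0%, and 43.9%. Across other cells of a library, thinned Cd79a and Cd79b UMIs had a Spearman rho of 0.33 and 0.29 in libraries 5 and 6 (3629 and 4069 cells) and of 0.09 and 0.11 in libraries 7 and 8 (4940 and 3513 cells). These points share a library and a fixed depth, and no p-value applies to them. The thinned Cd79b mean was 11.7 and 12.1 UMIs in libraries 5 and 6 and 1.57 and 1.69 in libraries 7 and 8. Counting noise at low counts lowers rho, so that these values do not compare coexpression between the library pairs. The part of low counts was not tested.

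**Figure D2:**
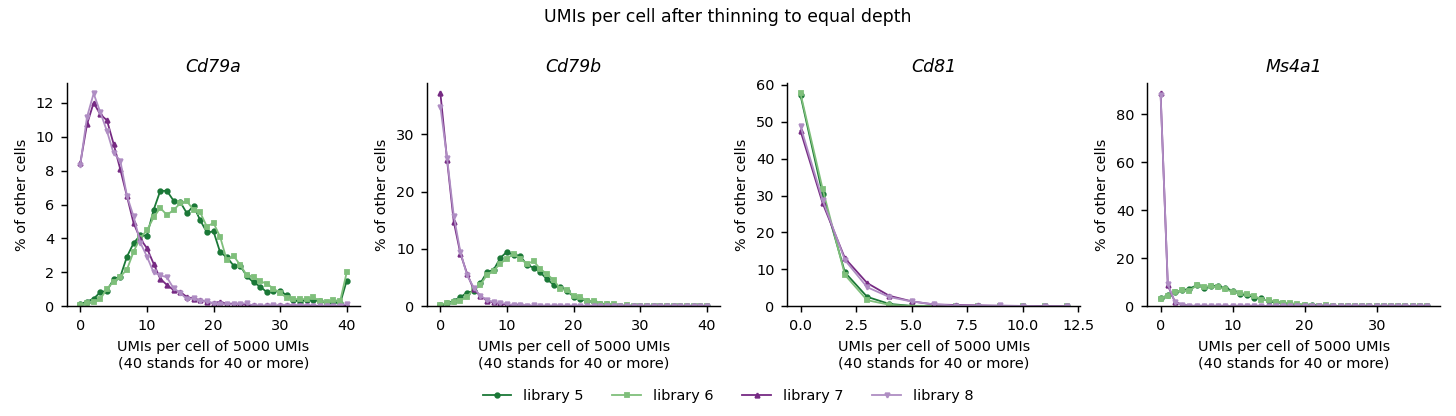
Percent of other cells (y axis) by the number of UMIs of a gene per cell after thinning to 5000 UMIs (x axis), for Cd79a, Cd79b, Cd81, and Ms4a1, with 1 line per library. The median Cd79b count was 11 and 12 UMIs in libraries 5 and 6 and 1 in libraries 7 and 8, and Ms4a1 had a median of 0 in libraries 7 and 8.

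Jchain-high cells, 24, 39, 54, and 28 in the libraries in order, are those with the mark of antibody secretion. They were few and rich in immunoglobulin mRNA, which took 23.0%, 22.6%, 25.5%, and 15.9% of their UMIs against 0.37% to 1.77% in other cells so that the CPM of other genes was read on a smaller remainder. The Jchain threshold cut through few cells. Pooled over libraries, the 6 cells with 3 or 4 Jchain UMIs had Cd79a at 5102 CPM and the 4 cells with 5 or 6 had it at 7999 CPM. These cells came from different mixes of libraries. In library 7, Cd79a was at 5413 CPM (1 cell) and 4055 CPM (2 cells). In library 8 it was at 3623 CPM (3 cells) and 13747 CPM (1 cell). A member was called here only if it was past 1.5-fold, the same way, in all 4 libraries. By this rule 0 of 9 members were called higher and 0 of 9 lower, where 2.67% of all genes were called higher and 5.99% lower. The median log2 ratio over members was -0.40, and that over all genes was -0.37.

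Cd79a was the only member above other cells in all 4 libraries. It was at 5130.2, 4615, 3413, and 2941 CPM in Jchain-high cells, for log2 ratios of 0.70 (0.62 to 0.77), 0.46 (0.40 to 0.51), 1.73 (1.67 to 1.79), and 1.53 (1.45 to 1.61). Library 6, at 1.37-fold, kept it from being called. After thinning, the variance of Cd79a UMIs between Jchain-high cells was 6.84, 8.63, 7.03, and 3.43 times the mean. The intervals leave this spread out. With immunoglobulin, mitochondrial, and ribosomal protein genes left out of the totals, the 4 log2 ratios of Cd79a became 0.92, 0.63, 2.02, and 1.68. It was then called, with no share of all genes computed at this setting. Its partner Cd79b did not follow, at 1389.8, 1262, 279, and 369.7 CPM, with log2 ratios of -0.70 and -0.89 in libraries 5 and 6 and of -0.09 (-0.30 to 0.10) and 0.24 (0.01 to 0.47) in libraries 7 and 8. With the same genes left out of the totals, the log2 ratios of Cd79b were -0.48, -0.72, 0.20, and 0.39. Accordingly, Jchain-high cells held 3.69, 3.66, 12.2 (10.6 to 14.1), and 7.96 (6.76 to 9.42) Cd79a UMIs per Cd79b UMI, more than the other cells of each library.

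The mRNAs of the surface proteins CD81 and CD20 went in different directions in the 2 library pairs. Cd81 was at 295 and 313 CPM in Jchain-high cells of libraries 5 and 6, log2 ratios of 1.32 (1.00 to 1.62) and 1.45 (1.23 to 1.66) over other cells. In libraries 7 and 8 it was at 138 and 160.0 CPM, log2 ratios of -0.53 (-0.82 to -0.25) and -0.25 (-0.61 to 0.09). Ms4a1 was at 727 and 708 CPM in Jchain-high cells of libraries 5 and 6 (log2 ratios -1.08 and -1.14) and at 72.5 and 56.3 CPM in libraries 7 and 8 (log2 ratios 1.22, 0.80 to 1.60, and 0.60, -0.03 to 1.17), where it rested on 55 and 25 UMIs and the interval in library 8 contained 0. The gap of Cd81 between the pairs thus had the opposite sign in Jchain-high cells (log2 gap 0.88) and in other cells (-0.69). The difference of these gaps between classes was not tested. With immunoglobulin, mitochondrial, and ribosomal protein genes left out of the totals, the log2 ratios of Cd81 became 1.54, 1.62, -0.23, and -0.10. Those of Ms4a1 became -0.86, -0.97, 1.51, and 0.74. The decreases of Cd81 in libraries 7 and 8 were thus smaller, and no intervals were computed for these values.

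Lyn was lower in Jchain-high cells of each library, at 54.4, 80.8, 35.6, and 69.9 CPM, with log2 ratios from -1.56 to -0.47, though in library 8 the interval reached 0.04. Syk, at 208, 200.2, 67.2, and 110.4 CPM, had log2 ratios of -0.85, -0.97, -0.93, and -0.15. Both genes passed 1.5-fold in libraries 5, 6, and 7 and not in library 8. Without library 8, Syk and Lyn were called lower, with no share of all genes computed at that setting. Both decreases were smaller when immunoglobulin, mitochondrial, and ribosomal protein genes were left out of the totals. The log2 ratios were then -0.63, -0.80, -0.63, and -0.01 for Syk and -1.33, -0.81, -1.27, and -0.33 for Lyn. Blnk was at 141, 202, 51.4, and 81.1 CPM, which was level with other cells in libraries 5 and 6 (log2 ratios -0.33 and 0.12, both intervals containing 0) and above them in libraries 7 and 8 (0.97 and 1.60). Btk and Plcg2 rested on 6 to 29 UMIs per library. The log2 ratio of Btk in library 7 (-1.03, -2.16 to -0.10) and that of Plcg2 in library 6 (-0.81, -1.60 to -0.13) had intervals below 0, and the intervals of both genes in the remaining libraries contained 0. With immunoglobulin, mitochondrial, and ribosomal protein genes left out of the totals, the ratio of Btk in library 7 was -0.74. That of Plcg2 in library 6 was -0.64. No intervals were computed for these smaller decreases.

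**Figure D3:**
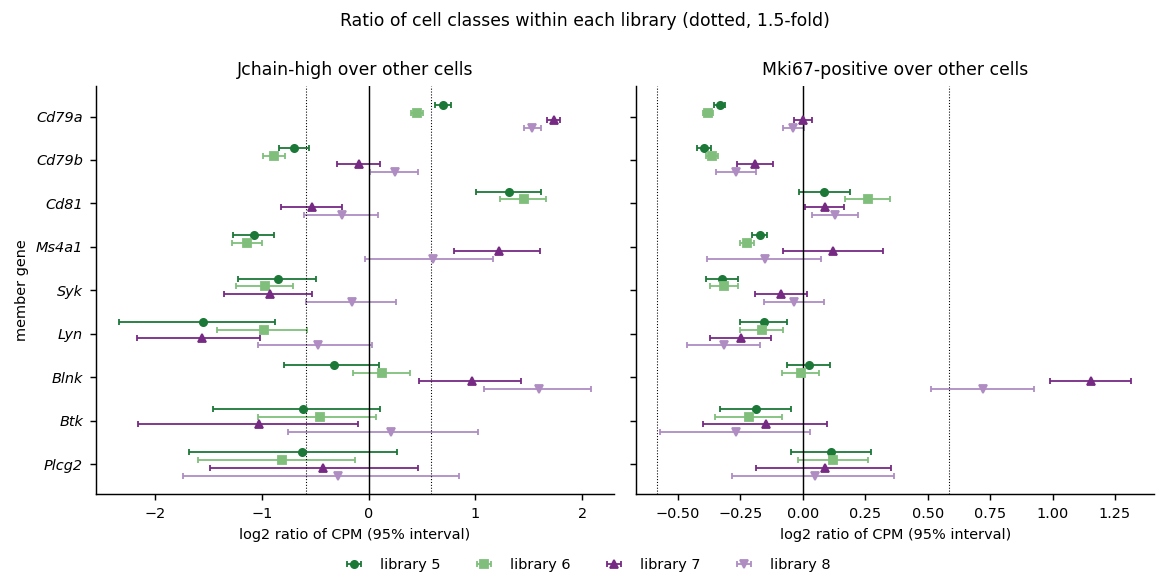
Log2 ratio of CPM (x axis) of Jchain-high (left) or Mki67-positive cells (right) over other cells of the same library, for each member and library, with exact conditional 95% intervals and dotted lines at 1.5-fold, where the panels differ in the range of the x axis. Cd79a lies above 0 in Jchain-high cells of all 4 libraries (0.46 to 1.73), and Blnk lies above 0 in Mki67-positive cells of libraries 7 and 8 (1.15 and 0.72).

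The levels were also followed over cells grouped by their Jchain UMIs. In libraries 7 and 8, Cd79a was at 1022 and 1012 CPM in cells without Jchain, 1701 and 1313 CPM with 1 to 4 Jchain UMIs, and 5704 and 3306 CPM with 5 to 19. It then had lower values, 3076 and 2897 CPM, in cells with at least 100 Jchain UMIs, in which immunoglobulin genes took 30.2% and 22.4% of UMIs. In libraries 5 and 6, Cd79b had its highest level, 2163 and 2238 CPM, in cells without Jchain and was at 1006 and 1003 CPM in those with at least 100 UMIs. Cd81 in the same bins was at 119.2 and 118.6 CPM without Jchain and at 352 and 415 CPM with at least 100 UMIs. The top bin held 7 and 14 cells in libraries 5 and 6 and 18 and 4 cells in libraries 7 and 8. The bin of 5 to 19 held 7, 8, 9, and 11 cells in libraries 5, 6, 7, and 8. In it, 1 cell of library 5 had Cd79a at 11911 CPM and 1 cell of library 8 at 13747 CPM. Levels without these cells were not computed. In library 8 the Cd79a intervals of this bin (3022 to 3610 CPM) and of the top bin (2491 to 3350 CPM) overlapped.

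**Figure D4:**
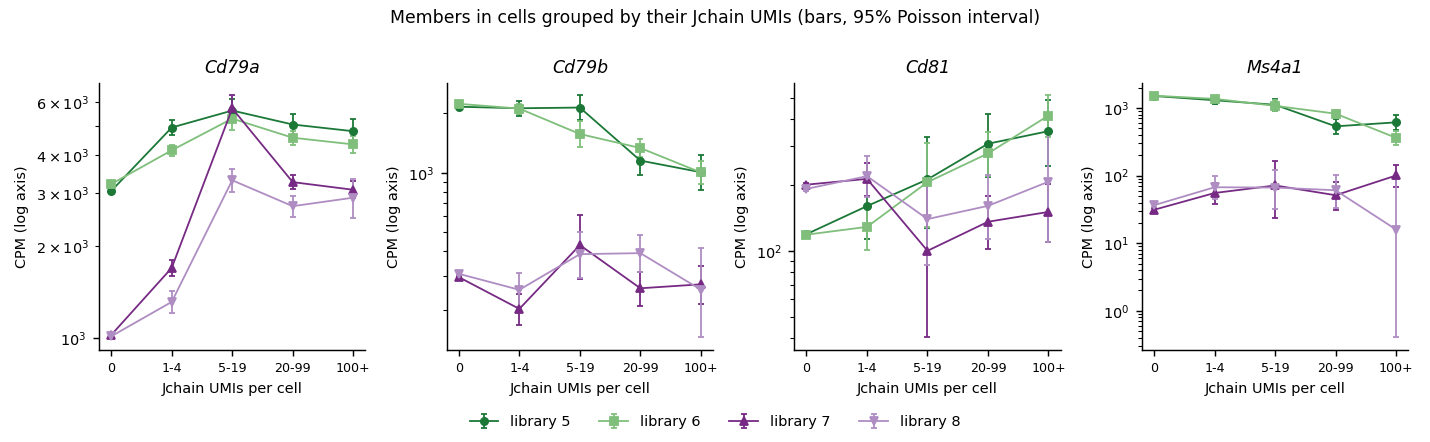
CPM (log axis) of Cd79a, Cd79b, Cd81, and Ms4a1 in cells grouped by Jchain UMIs (x axis), 1 line per library, with exact Poisson 95% intervals. Cd79a has its highest value at 5 to 19 Jchain UMIs in all 4 libraries, in 7, 8, 9, and 11 cells. It is at 5704 CPM in library 7, while in library 5 the interval of this bin overlaps those of its neighbors. In library 8 the interval overlaps that of the bin of at least 100 UMIs. The bin of 5 to 19 includes 1 cell with Cd79a at 11911 CPM in library 5 and 1 at 13747 CPM in library 8. Cd79b goes from 2163 to 1006 CPM over the bins of library 5.

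In Mki67-positive cells, the cycling cells of the culture (388, 505, 403, and 313 in the libraries in order), the members differed little from other cells. None of the 9 was called higher and none lower, where 3.57% of all genes were called higher and 0.121% lower. Their median log2 ratio was -0.19, and that of all genes was 0.04. Mki67-positive cells were deeper, with medians of 15614 to 16743 UMIs against 8457 to 10108 in other cells. Cd79b was somewhat lower in each library, with log2 ratios of -0.40, -0.36, -0.19, and -0.27, and Lyn likewise, with log2 ratios of -0.16, -0.16, -0.25, and -0.32. All 8 of these intervals lay below 0. Cd79a had log2 ratios of -0.33 and -0.38 in libraries 5 and 6 and of -0.04 (-0.08 to 0.00) in library 8, where its level, 991 CPM, was near that in other cells.

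Blnk was the exception. In libraries 5 and 6 it was at 179.8 and 184 CPM in Mki67-positive cells, log2 ratios of 0.02 (-0.06 to 0.11) and -0.01 (-0.09 to 0.07). In libraries 7 and 8 it was at 58.3 and 44.2 CPM, log2 ratios of 1.15 (0.99 to 1.31) and 0.72 (0.51 to 0.93). In library 7, Blnk was at 26.2 CPM in cells without an Mki67 UMI, 41.7 CPM with 1, 54.4 CPM with 2 to 4, and 71.3 CPM with 5 or more. In library 8 the same bins were at 26.8, 39.0, 36.3, and 52.2 CPM, which is not a step up in each bin. With equal depth, 23.0% and 18.8% of Mki67-positive cells and 11.2% and 11.8% of other cells of libraries 7 and 8 had a Blnk UMI. The log2 gap of Blnk between the library pairs was 1.63 in Mki67-positive cells and 2.72 in other cells. Plcg2 was level in all 4 libraries, with log2 ratios from 0.05 to 0.12 and all intervals containing 0.

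Libraries 7 and 8 were rich in Il10, the cytokine of regulatory B cells, at 261 and 258 CPM in other cells against 13.6 and 10.9 CPM in libraries 5 and 6, and members were followed over cells grouped by Il10 UMIs. Cd79b in library 7 was at 365 CPM in cells without Il10, 291 CPM with 1 to 4 UMIs, and 246 CPM with 5 or more, and in library 8 at 399, 310.3, and 246 CPM. Cd79a went the other way, at 947, 1028, and 1104 CPM in library 7 and 977, 987, and 1096 CPM in library 8. The number of Cd79a UMIs per Cd79b UMI was therefore 2.59, 3.53, and 4.49 over these bins in library 7 and 2.45, 3.18, and 4.46 in library 8. In libraries 5 and 6, Cd79b was at 2298 and 2378 CPM without Il10. With 1 to 4 Il10 UMIs (246 and 263 cells) it was at 1847 and 1898 CPM. Cd79a was at 3185 and 3381 CPM and at 2962 and 3257 CPM in these 2 bins. The ratio went from 1.39 to 1.60 in library 5 and from 1.42 to 1.72 in library 6. In the 15 and 9 cells with 5 or more it was 2.39 and 1.57. Blnk had the order of Cd79b, at 30.6, 26.5, and 21.8 CPM in library 7 and 32.7, 27.2, and 21.4 CPM in library 8. Ms4a1 was at 33.3, 28.5, and 33.3 CPM in library 7 and at 49.8, 32.2, and 34.6 CPM in library 8. Syk was at 132, 127, and 124 CPM in library 7 and at 119.96, 125, and 122 CPM in library 8. Cd79b in cells without an Il10 UMI was lower in libraries 7 and 8 than in libraries 5 and 6. A count of 0 UMIs need not mean that a cell lacked Il10 mRNA. The bins differed in depth, with median UMIs of 9388, 9992, and 11381 in library 7 and 9034, 9690, and 11591 in library 8. The part of depth in the order of the bins was not tested.

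**Figure D5:**
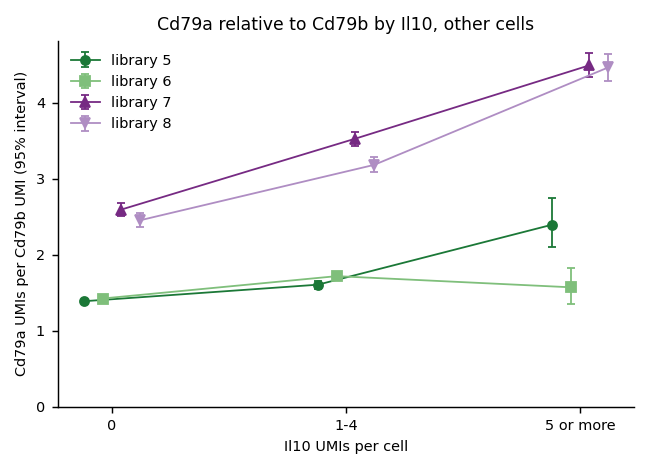
Cd79a UMIs per Cd79b UMI (y axis, from 0) in other cells grouped by Il10 UMIs (x axis), 1 line per library, with exact conditional 95% intervals. In libraries 7 and 8 the ratio goes from 2.59 and 2.45 in cells without Il10 to 4.49 and 4.46 in cells with 5 or more UMIs. In libraries 5 and 6 it goes from 1.39 and 1.42 to 1.60 and 1.72 with 1 to 4 UMIs. The bins of 5 or more in libraries 5 and 6 hold 15 and 9 cells.

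Over the 12 profiles of 4 libraries and 3 classes, the members' log2(CPM + 1) values were compared with each other and with 2331 genes of at least 50 CPM. These profiles share libraries and are not independent, so that no p-value is given. Differences between the library pairs and between the classes both enter each correlation. Cd79a and Lyn, both called higher in libraries 5 and 6, had r = -0.14. Cd79b and Ms4a1 were most alike (Pearson r = 0.99), followed by Syk with Btk and with Plcg2 (both 0.97). Cd81 had a negative r with each other member, from -0.48 with Lyn to -0.05 with Cd79a. Outside the members, the gene most like Cd79a was Mzb1, an endoplasmic reticulum protein of antibody-making cells (r = 0.98), which was at 1435 and 1534 CPM in other cells of libraries 5 and 6 and at 8243 and 7765 CPM in their Jchain-high cells. B2m and Rap1a came next. Cd79b was most like Gm26740, Rhoh, and Arl5c, and Ms4a1 was most like Mtss1, Ly6d, and Tram1. Cd81 was most like Top1, Tmed5, and Sar1b (r = 0.92, 0.91, and 0.89). Syk was most like Ptpn18, Gm31243, and Bank1, and Lyn was most like Bcl11a, Ncf1, and Cetn2. Blnk was most like Ly6e, Arid4a, and Serinc3, Btk was most like Gm31243, Ets1, and Ndufa6, and Plcg2 was most like Emp3, Lmo2, and Psmb9.

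A wider list of 74 genes of the pathway, in 7 groups by role, was read by the same rules, and 61 reached 10 CPM. Between the library pairs, 41 of the 61 were called higher in libraries 5 and 6 and 2 were called lower, with a median log2 gap of 0.97 (16.0% and 29.7% of all genes, median -0.17). Receptors and coreceptors were called higher in 6 of 7 and genes downstream of phospholipase C in 8 of 12, but adaptors in only 3 of 10. The group of inhibitory receptors and phosphatases was called higher in 10 of 12. It also held the adaptors Dok1 (not called) and Dok3 (called) and the ubiquitin ligases Cbl and Cblb (both called). Large gaps were found for the Ras activators Rasgrp3 (56.9, 57.5, 4.80, and 4.21 CPM, log2 gap 3.57) and Rasgrp1 (3.104), the proton channel Hvcn1 (3.24), and the inhibitory adaptor Dok3 (2.93). The 2 called lower were the Src family kinase Fyn (32.2, 30.9, 61.8, and 59.9 CPM, log2 gap -0.90) and the tetraspanin Cd53 (319, 306, 611, and 529.8 CPM, log2 gap -0.73). Of the tetraspanins and MS4A relatives that reached 10 CPM, 5 of 6 were called higher and 1 lower, and the tetraspanins Cd37 (log2 gap 1.93), Cd82 (1.29), and Tspan32 (1.24), named here beside Cd53 after their values were seen, were among those called higher.

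In Jchain-high cells, 1 of the 61 genes of the wider list was called higher and 7 were called lower, with a median log2 ratio of -0.60 (2.67% and 5.99% of all genes, median -0.37). The gene called higher was Ighm, the IgM heavy chain, with log2 ratios from 4.01 to 5.92. Genes called lower included the MS4A relatives Ms4a4c (log2 ratios from -2.46 to -1.41) and Ms4a6c (-2.03 to -0.77) and the ubiquitin ligase Cblb (-1.999 to -0.97). No gene of the wider list was called in either direction in Mki67-positive cells, where the median log2 ratio of the list was -0.07.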

How the data were processed

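The scRNA-Seq libraries were prepared by the authors with Chromium Single Cell 3′ v3 chemistry, and Cell Ranger (version 3.1.0) aligned reads to mm10 and counted UMIs, per the labels. The deposited values are whole UMI counts per gene and cell, combined and normalized between libraries by the authors with CellRanger aggr and not imputed. UMIs per cell are given here as deposited, after that step. The matrix has 35989 columns. The barcode list was paired with the last 19920 columns, which is an inference. Between the 400 columns on either side of the start of library 7, Cd79b went from 2231 to 286 CPM. At the starts of libraries 6 and 8 it went from 2163 to 2199 CPM and from 300.2 to 311 CPM, so that these starts show no such shift. The other 16069 columns were not used. Libraries 5 and 6 each held fewer UMIs per cell than libraries 7 and 8, and the passing cells of a library summed to 44842982 to 63638158 UMIs. No cell was removed as a doublet, and no doublet caller was run.

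UMIs were summed per library and class and divided by the sum of all UMIs (Python version 3.11.15, NumPy version 2.4.6, SciPy version 1.17.1). Calls needed 1.5-fold in every library. The background was read on 6633 genes of at least 10 CPM. Scripts were tested on simulated counts. Scaling factors came from edgeR (version 4.0.16) and DESeq2 (version 1.42.0), used as alternatives only. Other limits on genes, mitochondrial UMIs, and fold, other class thresholds, and leaving out each library were also tried. The count tests were not run, since the libraries name no sample. Gene starts were taken from GENCODE vM21, in which no other gene on the same strand overlaps a member.

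The members, the lists, and the rules were chosen with earlier results of these data known. Named genes were all 9 members, the 5 genes of the wider list with the largest called ratios per direction and comparison, and the 3 genes most like each member in log2(CPM + 1). Some genes that the rule names are not reported here. The promoter motifs, the Cd79a to Cd79b ratio, the Ms4a1 bins, and the values of Hbb-bt were added after the values were seen.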

Additional observations from a re-analysis of the deposited data

How the results depend on the processing

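No paired analysis was possible because the library numbers carry no sample or replicate number. The 8 members higher in libraries 5 and 6 were called under all 3 scalings tried, while Lyn was lost in cells under 5% mitochondrial UMIs (log2 gap 0.29) and without the 5% of cells with the most UMIs (0.58), and the log2 gap of Cd79a ranged from 1.54 to 1.93, of Cd79b from 2.81 to 3.14, and of Ms4a1 from 5.34 to 5.65 over 12 alternatives. These alternatives include leaving out each library, which by the rules can only keep or widen a gap and keep or add calls. Such settings could therefore not weaken a call. TMM and DESeq2 scaling each moved the median gap of all genes by 0.17 on the log2 scale, and totals without mitochondrial, ribosomal protein, and immunoglobulin genes by 0.16. The count of members lower in libraries 5 and 6 went from 1 to 0 under these 3 settings and in cells under 5% mitochondrial UMIs. In Jchain-high cells, 1 member (Cd79a) was called higher with DESeq2 scaling, without mitochondrial, ribosomal protein, and immunoglobulin genes, and without the 5% of cells with the most UMIs, and 0 to 1 with each library left out, where leaving out library 6 gave 1. Called lower were 2 members (Syk and Lyn) without the 5% of cells with the most UMIs, 1 (Lyn) without Mki67-positive cells, and 0 to 2 with each library left out, where leaving out library 8 gave 2. The cause was not tested. Shares of all genes called were computed only at the main setting and at other limits on genes and fold. Member counts at the remaining settings therefore have no background of their own.

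The counts of all genes depended on the limits set. Without a filter on genes, at 50 CPM, and at 2-fold, respectively, 3481, 356, and 653 genes were higher and 3787, 802, and 998 lower in libraries 5 and 6. Jchain-high cells had 335, 62, and 89 higher and 2375, 194, and 75 lower, and Mki67-positive cells had 640, 57, and 140 higher and 312, 2, and 1 lower. At 2-fold, the wider list had 0 genes lower in libraries 5 and 6 and 3 lower in Jchain-high cells. In Jchain-high cells, the 24 to 54 cells per library gave 6 to 29 UMIs of Btk and Plcg2. Shares of other cells with a UMI were compared unthinned and thinned for each member and library. The unthinned share lay past the interval of the thinned share in 35 cases, all but Cd79b in library 5 (99.92%, interval 99.68% to 99.96%).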

Other observations

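A few cells of library 8 had Ms4a1 at a level usual for libraries 5 and 6. These 18 other cells with at least 10 Ms4a1 UMIs were 0.49% of the other cells of library 8 (Clopper-Pearson 95% interval 0.29% to 0.78%), and library 7 held 3 (0.058%, 0.012% to 0.17%). In libraries 5 and 6, 64.9% and 67.1% of other cells had as many. In the 18 cells, Cd79b was at 1843 CPM, Cd79a at 3010.3 CPM, Ly6d at 4790.3 CPM, and Il10 at 152 CPM, and the median mitochondrial share was 6.40%. The cells of library 8 without an Ms4a1 UMI had Cd79b at 301 CPM, Ly6d at 297 CPM, Il10 at 258 CPM, and a median mitochondrial share of 4.60%. None of the 18 barcode sequences occurred in another library. The cells were chosen after the values were seen, for a member's own level, and were given no test.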
